A study of Mus musculus with 18 samples.

Results

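The change from embryonic day 9.5 (E9.5) to E10.5 in forelimb buds of Esco2 mutant mice was measured by setting the 3 RNA sequencing libraries labelled mutant, E10.5 against the 3 labelled mutant, E9.5. These are 6 of the 18 libraries of the study, chosen by their labels alone. Mutants were Esco2fl/fl;Prrx1-CreTg/0 and controls were Esco2fl/fl without the Cre transgene, so that every group carried floxed Esco2 alleles. The same step in controls, 3 libraries at E10.5 against 3 at E9.5, served as the measure of normal development, and the question was which of its changes still took place in mutants and which others appeared. Prrx1-Cre is active in limb mesenchyme and its descendants, not in ectoderm, blood or vessels, and a design without Cre in controls does not separate the action of Cre from the loss of Esco2. Each library came from individual limb buds. The labels do not state the embryo or litter behind a library, so p-values here reflect only how far these libraries spread. Mutant E10.5 replicates 1 and 2 and control E10.5 replicates 1 and 2 share the first number of their library names, as do mutant E9.5 replicate 1 and control E9.5 replicate 2. The labels do not say what that number stands for, and none is shared between the stages. Across genotypes, libraries with the same first number did not deviate together from their group means (correlations over genes from -0.128 to 0.0865 in 5 pairs).

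Esco2 is an acetyltransferase that acts on cohesin during DNA replication, so that sister chromatids stay joined until mitosis. In the forelimb bud at these stages, mesenchyme grows out under fibroblast growth factors (FGFs) from the apical ectodermal ridge, while Sonic hedgehog (Shh) from posterior mesenchyme patterns it. Genes at the 5′ end of the HoxA and HoxD clusters come on in sequence as the bud grows, early embryonic genes such as Lin28a are turned off, and the first cartilage condensations form under Sox9. Cells with failed chromosome segregation can stabilise p53, a transcription factor that arrests or kills them.

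Total counts per library ran from 44402251 to 48147568 in mutant E10.5 and from 36390557 to 53505350 in mutant E9.5, against 44992366 to 49489072 in control E10.5 and 47740565 to 56230058 in control E9.5. Esco2 (ENSMUSG00000022034.10, mm10 chr14:65819038-65833994) had 21.9, 18.9 and 22.3 CPM (counts scaled to a common library size) in mutant E10.5 libraries and 15.3, 17.8 and 19.8 CPM in mutant E9.5 libraries. Control libraries had 29.4, 33.6 and 28.1 CPM at E10.5 and 25.0, 28.1 and 27.2 CPM at E9.5. All mutant libraries thus lay below all control libraries of their stage, and Esco2 did not pass the test for a change between the mutant stages (log2 change 0.25 ± 0.14, SE of the fit, adjusted p = 0.29). Counts cover all exons, and no source used here names the floxed exons. The forelimb label fitted Tbx5, the forelimb T-box gene, at 50.8 to 118 CPM over the 6 mutant libraries, against 1.66 to 6.93 CPM for Tbx4 and 0.791 to 11.3 CPM for Pitx1, both hindlimb genes. Of 5 hindlimb markers, however, 3 rose and none fell from E9.5 to E10.5 in mutants (median log2 change 1.42). In controls 3 rose and 1 fell (median 2.92), with no difference called. The summed level of the 5 was 13.3 to 17.7 CPM in mutant E10.5 and 6.82 to 19.3 CPM in mutant E9.5 libraries. Mutant E10.5 replicate 3 held 1.96% haemoglobin counts, against 0.634% and 0.989% in the other libraries of its group, and 8.67 CPM of Xist, against at most 0.905 CPM in the other 17. Control E9.5 replicate 1 had 22294 genes detected, against 24125 or more in each other library of the 4 groups. Its levels also fell with gene length. Relative to the mean of all libraries, the slope was -0.258 log2 units per doubling of length, against -0.0543 to 0.0542 in the other libraries of the 4 groups. Its rank correlations with the other control E9.5 libraries were 0.9641 and 0.9672, where all other pairs within the 4 groups had 0.9829 or more.

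In mutants, 1938 genes were higher at E10.5 than at E9.5 and 886 were lower, of 20118 tested (edgeR quasi-likelihood test, adjusted p below 0.05, the threshold for every call below). These are 9.63% and 4.40% of the genes tested. In controls, 3009 genes were higher at E10.5 (15.0%) and 2514 were lower (12.5%). A further test compared the steps themselves, mutants minus controls: the step was more positive in mutants for 186 genes (0.925%) and more negative for 260 (1.29%). The mutant and control steps share no library, while the test of the difference uses all 12.

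Part of normal development took place in mutants. A set of 1598 genes changed the same way in both genotypes, 1124 higher and 474 lower at E10.5, amounting to 56.6% of the 2824 genes called in mutants and 28.9% of the 5523 called in controls. The median log2 change of those 1124 was 1.49 in mutants and 1.55 in controls. Genes called higher in controls had a median of 0.46 in mutants and 1.00 in controls, and genes called lower in controls had -0.16 in mutants and -0.65 in controls, where the medians over all tested genes were 0.04 and 0.02. Genes called higher in mutants had a median of 1.43 in mutants and 0.946 in controls, and genes called lower in mutants had -0.655 and -0.458. Each set was chosen by its own calls, which favours larger steps in the genotype used to choose it. Kept genes were chosen by calls in both genotypes. These medians therefore do not measure how far the steps differ between genotypes. A further 283 genes were called in controls and in the difference without changing the same way in mutants. These missed changes were 243 genes with no call in mutants and 40 called there in the opposite direction. New in mutants, called there and in the difference but not in controls, were 119 genes, 88 higher and 31 lower. The other 1067 genes called in mutants and 3642 called in controls did not pass the test of the difference, so that for them the step is not shown to differ between genotypes.

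These counts rest on which libraries enter. The number of new genes moved by over 1.5 times in every fit that left out 1 library except those without mutant E10.5 replicate 1 or control E9.5 replicate 3 (range 19 to 315). The number of missed genes ran from 87 without mutant E10.5 replicate 3 to 1927 without control E9.5 replicate 2. Genes lower in mutants were 470 without mutant E10.5 replicate 2 and 461 without mutant E9.5 replicate 2, where genes higher in mutants were 1170. Genes lower in controls were 1588 and 1513 without control E10.5 replicate 1 and 2. Without control E9.5 replicate 1, mutants had 2617 higher and 2238 lower genes, 53.9% of calls higher against 68.6% with it, and 2168 kept, 429 missed (opposite ones included) and 205 new genes. Without mutant E10.5 replicate 3, there were 1334 higher and 500 lower genes, and 1211 kept, 87 missed and 19 new genes. Without both of these libraries, the counts were 1980 higher, 1433 lower, 1818 kept, 235 missed and 87 new.

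**Figure D1:**
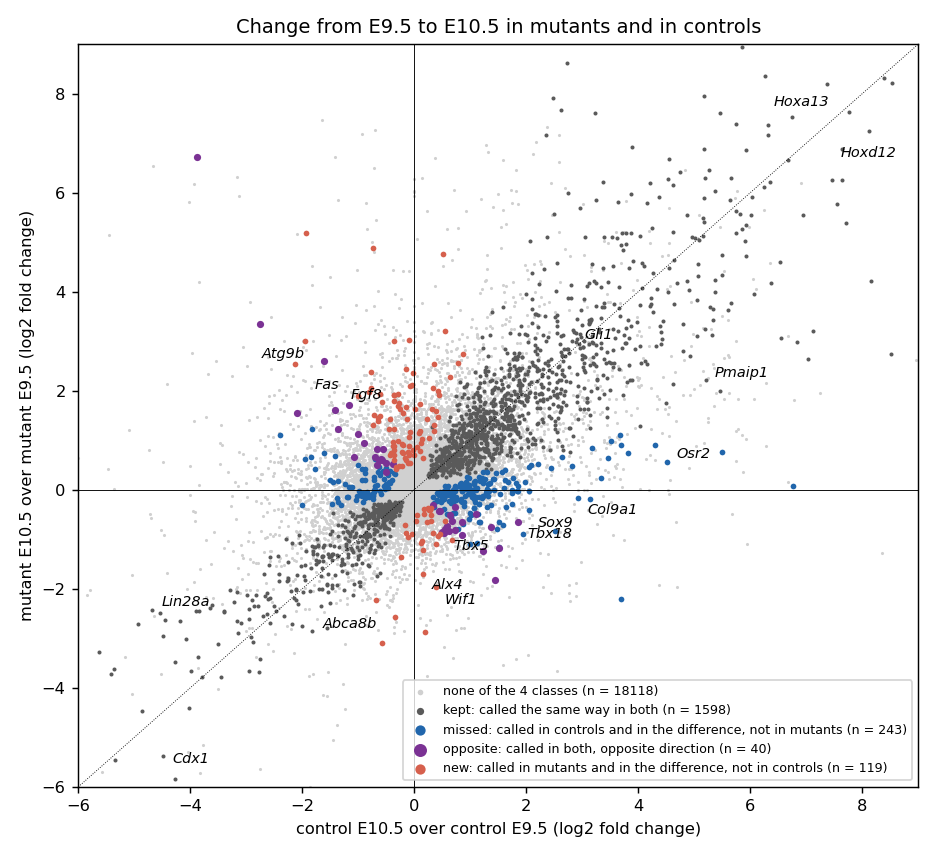
Each point is 1 of the 20118 tested genes, with its log2 fold change from E9.5 to E10.5 in controls on the horizontal axis and in mutants on the vertical axis, and 20 genes lie outside the axes. Kept genes (1598) run along the dotted line of equal change, genes not called in mutants (243 of the missed) lie near the horizontal line of no change in mutants, new genes (119) near the vertical line of no change in controls, and opposite genes (40) in the upper left and lower right.

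Among the changes that took place in mutants, the switch within the Hox clusters was large. Of 10 posterior HoxA and HoxD genes, 6 rose and 2 fell in mutants, the same 6 and 2 as in controls, with a median of 1.29 in mutants and 1.23 in controls, and none passed the test of the difference. Hoxa13 (mm10 chr6:52257694-52260880), which specifies the hand plate, had 20.7, 23.5 and 24.4 CPM in mutant E10.5 libraries and 0.154, 0.0596 and 0.139 CPM in mutant E9.5 libraries. In controls it had 30.6, 39.1 and 28.5 CPM at E10.5 and 0.175, 0.0183 and 0.268 CPM at E9.5. The stages did not overlap in either genotype, and the log2 change was 7.63 ± 0.46 in mutants and 7.76 ± 0.44 in controls. Hoxd12 rose by 7.24 ± 0.50 in mutants and 8.12 ± 0.51 in controls on the log2 scale, Hoxd13 by 4.09 ± 0.32 and 3.66 ± 0.32, and Hoxd11 by 3.74 ± 0.28 and 4.03 ± 0.28. The stylopod and zeugopod genes Hoxa10 and Hoxa11 rose by 1.42 and 1.16 in mutants, against 1.59 and 0.87 in controls. Hoxd8 and Hoxd9, expressed early, fell by 1.30 and 1.49 in mutants, against 1.74 and 1.75 in controls.

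The other side of the switch was present as well. Of 22 anterior HoxA to HoxD genes, 12 fell and none rose in mutants (median -1.04), and 17 fell and none rose in controls (median -1.58). All 12 were kept, and the difference was called for none of the 22. Hoxb9 had 4.84, 4.79 and 4.08 CPM in mutant E10.5 libraries and 70.8, 53.4 and 49.4 CPM in mutant E9.5 libraries, a log2 change of -3.66 ± 0.31 (adjusted p = 8.68e-07), against -3.99 ± 0.32 in controls. Hoxd1 changed by -3.02 in mutants and -4.07 in controls.

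**Figure D2:**
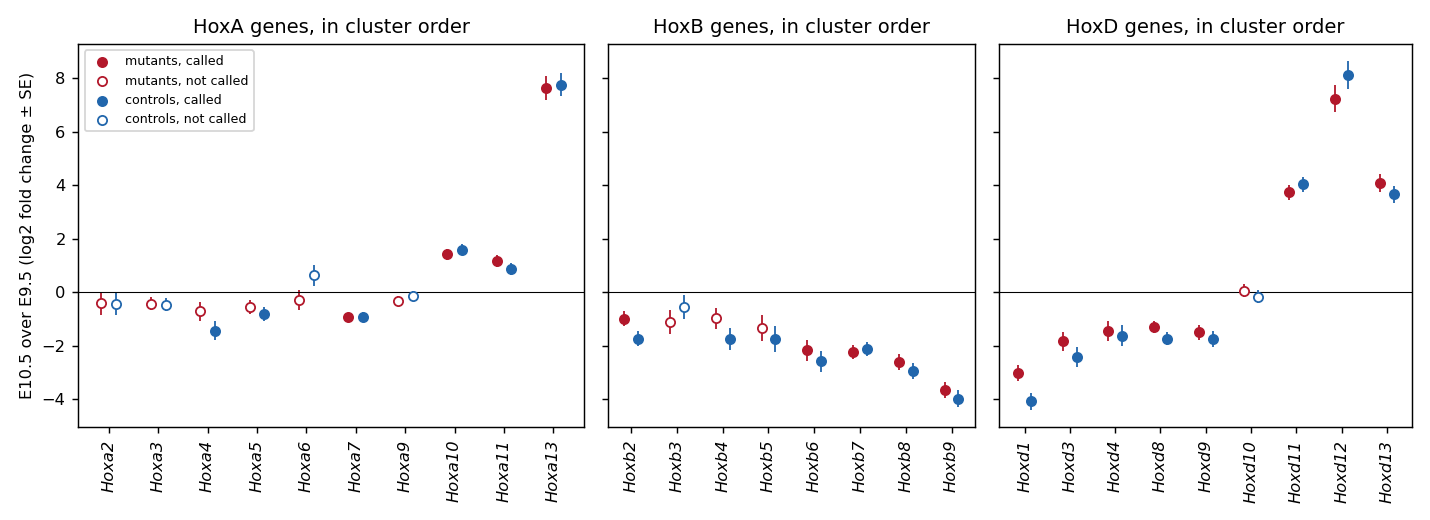
Log2 fold change from E9.5 to E10.5 (± SE of the fit) for HoxA, HoxB and HoxD genes in cluster order, mutants in red left of controls in blue, with filled points for genes past the threshold. The last HoxA and HoxD genes rose in both genotypes, Hoxa13 by 7.63 in mutants and 7.76 in controls, while the HoxB genes and the early HoxD genes were lower at E10.5.

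A number of early embryonic genes fell in both genotypes. Of 14 tested members of the list of timer genes, 6 fell and 1 rose in mutants, and 6 fell and 2 rose in controls, with no difference called, and 1 called as more positive in mutants without control E9.5 replicate 2. Lin28a, which blocks maturation of let-7 microRNAs, had 71.0, 65.3 and 68.7 CPM in mutant E10.5 libraries and 384, 506 and 391 CPM in mutant E9.5 libraries. In controls it had 28.4, 17.9 and 21.0 CPM at E10.5 and 428, 408 and 394 CPM at E9.5. Every mutant E10.5 library thus stood above every control E10.5 library, while the E9.5 groups overlapped. The fall was 2.64 ± 0.31 in mutants and 4.19 ± 0.34 in controls on the log2 scale, and its difference of 1.55 did not pass (adjusted p = 0.0628). It did pass with DESeq2, with limma-voom, with a mean CPM of at least 1, with only the 12 libraries of both stages and without control E9.5 replicate 2 (adjusted p from 0.00807 to 0.231 over all settings). Lin28b fell by 1.30 in mutants and 1.55 in controls, Cdx1, a homeobox gene of the early trunk, by 5.37 and 4.49, and Nr6a1, a nuclear receptor of the trunk stage, by 2.65 and 3.16. Wfikkn1, a secreted inhibitor of myostatin, fell in both but less in mutants (-2.45 ± 0.19) than in controls (-3.90 ± 0.20; difference 1.45, adjusted p = 0.00805).

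Shh and targets of its pathway rose in mutants. Of 15 genes of posterior limb and Shh response, 6 rose and 1 (Prdm1) fell in mutants, against 10 that rose and 1 that fell in controls, and the difference was called for Osr1 alone. Gli1, a direct target and effector of the pathway, had 107, 121 and 116 CPM in mutant E10.5 libraries and 13.1, 10.6 and 20.1 CPM in mutant E9.5 libraries, with 88.4, 71.3 and 96.3 CPM in control E10.5 and 7.21, 9.16 and 18.4 CPM in control E9.5 libraries. The stages did not overlap in either genotype, with log2 changes of 2.98 ± 0.28 in mutants and 2.88 ± 0.28 in controls. The receptor gene Ptch1 rose by 1.49 in mutants, against 1.86 in controls, and the Shh-binding inhibitor Hhip by 2.21, against 2.57. Shh itself had 12.8, 8.94 and 10.9 CPM in mutant E10.5 and 1.02, 0.794 and 1.05 CPM in mutant E9.5 libraries (adjusted p = 0.0136), a call that was lost without mutant E9.5 replicate 1 or 2 (largest adjusted p 0.0743 over the settings tried).

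Upstream and downstream of Shh, the picture in mutants was less even. Hand2, a transcription factor that activates Shh, had a log2 change of 0.42 ± 0.18 in mutants (adjusted p = 0.143) and 1.08 ± 0.18 in controls (adjusted p = 0.000357). Grem1, the BMP antagonist that links Shh to ridge FGFs, had 0.36 ± 0.30 in mutants (adjusted p = 0.508) and 1.28 ± 0.30 in controls (adjusted p = 0.00503). For neither gene was the difference called (adjusted p = 0.151 and 0.214). Osr1, a zinc finger gene of limb connective tissue, rose in both, to 16.6, 14.5 and 12.1 CPM in mutant E10.5 libraries, against 2.97, 5.42 and 5.32 CPM in mutant E9.5. Control libraries had 44.5, 48.8 and 43.5 CPM at E10.5 and 4.66, 3.33 and 4.57 CPM at E9.5. The rise was smaller in mutants (1.65 ± 0.22) than in controls (3.45 ± 0.23), with a difference of -1.79 ± 0.30 (adjusted p = 0.00588).

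Other kept changes came from several gene groups. The zinc finger genes Bcl11a and Bcl11b rose by 2.33 and 2.96 in mutants, against 2.63 and 3.32 in controls, and the distal homeobox gene Evx1 by 4.07, against 4.06. Oxct1, a mitochondrial enzyme of ketone use, rose by 1.33 ± 0.08 in mutants and 1.49 ± 0.08 in controls. The transcription factor gene Tfap2b and the Notch ligand gene Jag1 rose by 3.24 and 1.49 in mutants, against 3.55 and 1.75. Fgf10, the mesenchymal FGF that maintains the ridge, fell by 1.27 ± 0.18 in mutants and 0.72 ± 0.18 in controls, and the Wnt effector Lef1 by 1.35 and 1.18. Of 25 genes of hypoxia and glycolysis, 8 fell and none rose in mutants (median -0.50), and 16 fell and 1 rose in controls (median -0.68), with no difference called. Without control E9.5 replicate 1, 12 fell in mutants and 10 in controls, and without mutant E9.5 replicate 1, 5 fell in mutants. The glycolytic enzyme Pgk1 fell by 0.78 in mutants and 1.09 in controls. Of 21 genes of ribosome biogenesis, 9 fell in mutants (median -0.37) and 19 in controls (median -0.78). That mutant count moved to 16 without control E9.5 replicate 1, to 4 without replicate 1 of mutant E10.5 or mutant E9.5, to 1 without replicate 2 of either, and to 2 without mutant E10.5 replicate 3. The difference was called for 2 of the 21, both more positive in mutants and neither called there (0 to 10 over the settings).

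**Figure D3:**
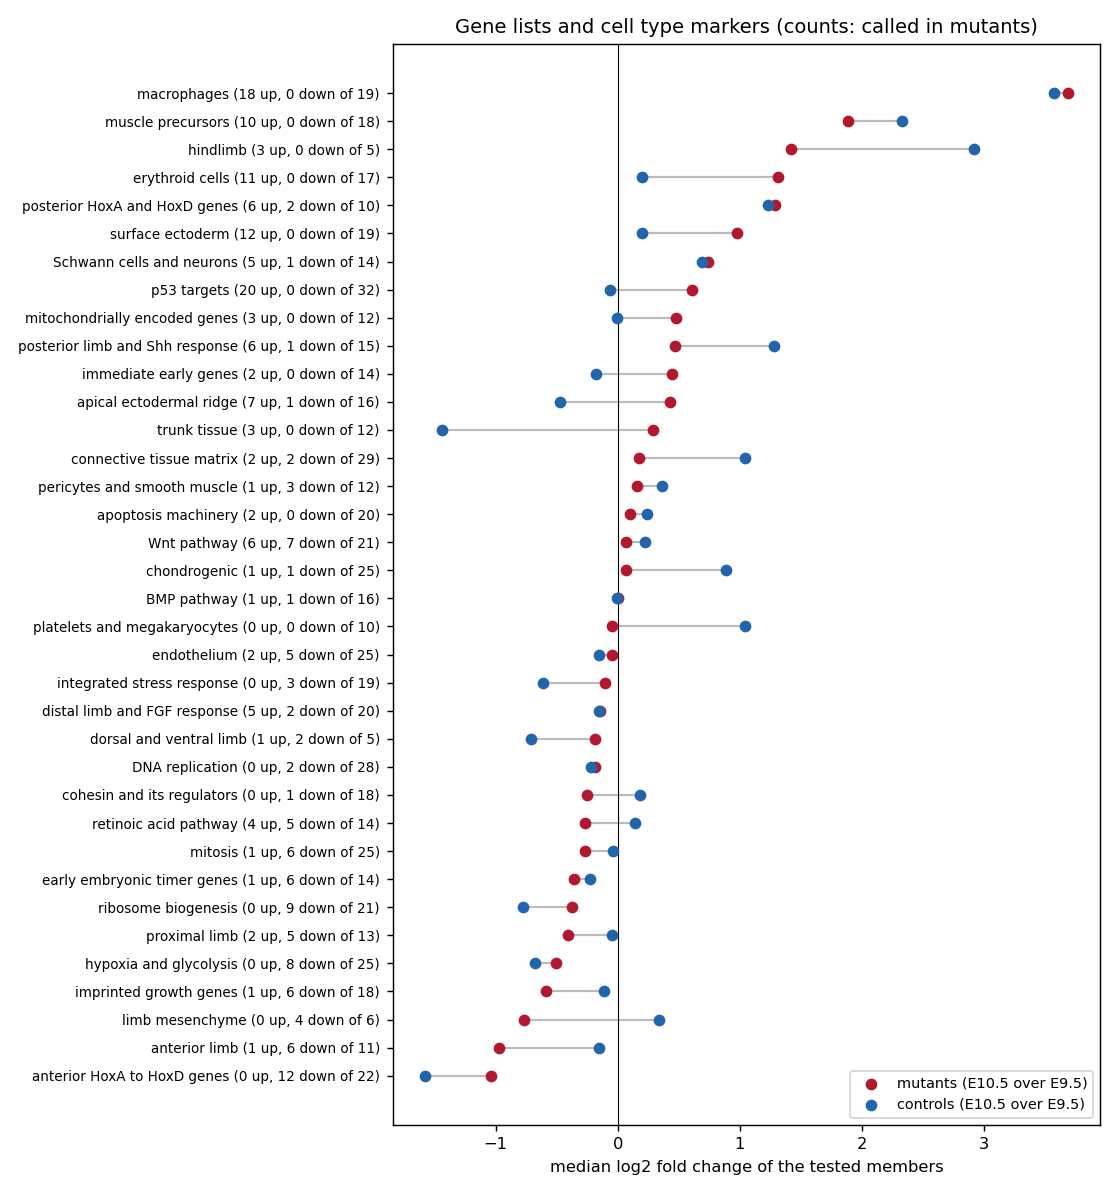
Median log2 fold change from E9.5 to E10.5 of the tested members of each gene list, mutants in red and controls in blue, with the numbers called higher and lower in mutants in the labels. The points of the posterior Hox and macrophage lists lie close together at large changes, while those of the chondrogenic, connective tissue, p53 and limb mesenchyme lists lie apart.

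Cartilage genes rose in controls, few of them passed the test in mutants, and for 8 the steps themselves differed. Of 25 tested chondrogenic genes, 1 rose (Matn4) and 1 fell (Sox6) in mutants (median 0.06), while 13 rose and none fell in controls (median 0.89). The difference was called for 8, all more negative in mutants, namely Sox9, Sox5, Col9a1, Col9a2, Col9a3, Col11a1, Foxc1 and Trps1. That number was 5 to 12 over the settings tried, and 5 without mutant E10.5 replicate 1 or 3, mutant E9.5 replicate 3 or control E10.5 replicate 2 or 3. It was 6 without control E9.5 replicate 1, where 2 genes rose and 3 fell in mutants. For the other chondrogenic genes the step is not shown to differ between genotypes.

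Sox9 (mm10 chr11:112782224-112787760), the transcription factor that founds the cartilage lineage, had 24.5, 22.3 and 18.0 CPM in mutant E10.5 libraries and 24.9, 26.3 and 35.5 CPM in mutant E9.5 libraries. Control libraries had 105, 139 and 128 CPM at E10.5 and 34.2, 26.5 and 30 CPM at E9.5. The E10.5 mutants lay below all other groups, and only the control stages stood far apart. The log2 change was -0.42 ± 0.18 in mutants (adjusted p = 0.15) and 2.04 ± 0.19 in controls, with a difference of -2.46 ± 0.26 (adjusted p = 0.000303). Its partner Sox5 changed by -0.31 ± 0.14 in mutants and 1.36 ± 0.14 in controls, with a difference of -1.68 (adjusted p = 0.000456).

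Matrix genes of cartilage gave the same picture. Col9a1, a chain of collagen IX, had 14.8, 12 and 10.7 CPM in mutant E10.5 and 10.8, 14.9 and 16.4 CPM in mutant E9.5 libraries, against 112, 136 and 118 CPM in control E10.5 and 13.2, 18.7 and 16.1 CPM in control E9.5. Control E10.5 libraries alone were high, and the difference was -3.10 ± 0.40 (adjusted p = 0.000858). Col11a1, a chain of collagen XI, had a difference of -1.34 ± 0.26 (adjusted p = 0.0148), and Trps1, a zinc finger gene of the growth plate, one of -1.22 ± 0.22 (adjusted p = 0.0104). The differences of Sox9, Sox5, Col9a1, Col11a1 and Trps1 were called in all 12 fits that each left out 1 library, while other calls rested on single libraries. Those of Col9a2 and Col9a3 were lost in all such fits except those without control E10.5 replicate 1 or control E9.5 replicate 2 (highest adjusted p 0.187 and 0.129). That of Foxc1 was lost without mutant E10.5 replicate 1 or 3, mutant E9.5 replicate 3, control E10.5 replicate 2 or 3, or control E9.5 replicate 1 (highest adjusted p 0.117). Col2a1, the main collagen of cartilage, was at 254 to 309 CPM in mutant E10.5 and 219 to 282 CPM in mutant E9.5 libraries. It changed by 0.16 ± 0.22 in mutants and rose by 1.13 ± 0.22 in controls, and its difference of -0.97 ± 0.31 was not called (adjusted p = 0.104).

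Connective tissue genes followed a like course. Of 29 tested genes of connective tissue matrix, 2 rose and 2 fell in mutants (median 0.17), while 18 rose and 2 fell in controls (median 1.04). The difference was called for 7, all more negative in mutants, namely Osr2, Eln, Mfap4, Col1a2, Col3a1, Col5a2 and Fbln2. It was 4 without replicate 2 or 3 of mutant E10.5, mutant E9.5 or control E10.5, and 14 without control E9.5 replicate 2. It was 7 without control E9.5 replicate 1, where 3 genes rose and 5 fell in mutants, while without mutant E9.5 replicate 2, 1 fell. Osr2, a zinc finger gene of joints and tendons, had 1.72, 2.58 and 1.35 CPM in mutant E10.5 libraries and 1.18, 0.933 and 1.75 CPM in mutant E9.5 libraries, against 22.5, 33.7 and 37.6 CPM in control E10.5 and 1.7, 1.5 and 0.926 CPM in control E9.5. The mutant stages overlapped and stayed near the level of control E9.5, with a difference of -3.94 ± 0.52 (adjusted p = 0.000858). Eln, which encodes elastin, did rise in mutants (1.25 ± 0.15), by less than in controls (2.78 ± 0.15; difference -1.53, adjusted p = 0.0011). The microfibril gene Mfap4 changed by -0.36 ± 0.13 in mutants and 1.07 ± 0.13 in controls, and the collagen I gene Col1a2 by 0.46 ± 0.20 and 2.04 ± 0.21. The differences of Osr2, Eln, Mfap4 and Col1a2 were called in all fits that left out 1 library, and those of Col3a1, Col5a2 and Fbln2 were not. That of Col3a1 was lost without mutant E10.5 replicate 2 or 3, mutant E9.5 replicate 2 or 3 or any 1 control E10.5 library, and that of Col5a2 also without mutant E10.5 replicate 1 (highest adjusted p 0.0893 and 0.102). That of Fbln2 was lost without replicate 2 or 3 of mutant E10.5, mutant E9.5 or control E10.5 (highest adjusted p 0.0993).

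Other genes with a more negative step in mutants rose in controls and rose less or not measurably in mutants. Cacna1g, a T-type calcium channel, had 53.3, 52.8 and 50.1 CPM in mutant E10.5 and 52.1, 51.2 and 56.5 CPM in mutant E9.5 libraries, against 163, 179 and 196 CPM in control E10.5 and 40.8, 58.4 and 51.8 CPM in control E9.5. The mutant stages overlapped, and the difference was -1.87 ± 0.19 (adjusted p = 0.000303). Runx1t1, a transcriptional corepressor, and Dnm1, a dynamin, had differences of -2.09 ± 0.24 and -1.30 ± 0.15. Shox2, the short stature homeobox gene of the upper limb, rose by 0.81 ± 0.19 in mutants and 2.41 ± 0.19 in controls (difference -1.61, adjusted p = 0.00537), with the call in mutants lost without mutant E9.5 replicate 2 (largest adjusted p 0.0527). Rspo3, a secreted Wnt agonist, rose by 1.24 ± 0.24 in mutants and 3.13 ± 0.25 in controls (difference -1.88, adjusted p = 0.00757). The retinoic acid receptor gene Rarg was missed (difference -0.71 ± 0.14, adjusted p = 0.0144), a call lost without mutant E10.5 replicate 3 (adjusted p 0.0535).

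Other genes fell in controls and were not called in mutants. Tubb6, a beta-tubulin, had 121, 93.7 and 121 CPM in mutant E10.5 and 112, 105 and 82.1 CPM in mutant E9.5 libraries, against 41.1, 46.5 and 40.6 CPM in control E10.5 and 110, 111 and 109 CPM in control E9.5 libraries. Its difference was 1.53 ± 0.19 (adjusted p = 0.000723). Cd44, a hyaluronan receptor present in the ridge, changed by 0.41 ± 0.16 in mutants (adjusted p = 0.101) and -0.94 ± 0.16 in controls, with a difference of 1.35 ± 0.23 (adjusted p = 0.00609).

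Tbx5 and Prrx1, identity genes of limb mesenchyme, fell in mutants and rose in controls. Tbx5 (mm10 chr5:119832668-119885219), required for forelimb outgrowth, had 63.0, 50.8 and 65.5 CPM in mutant E10.5 libraries and 108, 118 and 105 CPM in mutant E9.5 libraries. In controls it had 148, 165 and 166 CPM at E10.5 and 97.2, 124 and 110 CPM at E9.5. The stages did not overlap in either genotype, and the E9.5 groups overlapped each other. The log2 change was -0.88 ± 0.14 in mutants (adjusted p = 0.000269) and 0.53 ± 0.13 in controls (adjusted p = 0.00787), and the difference was -1.41 ± 0.19 (adjusted p = 0.000986). Prrx1, a homeobox gene of limb mesenchyme whose enhancer drives the Cre used here, had 283, 181 and 152 CPM in mutant E10.5 and 347, 395 and 373 CPM in mutant E9.5 libraries. It changed by -0.85 ± 0.16 in mutants and 0.50 ± 0.16 in controls (difference -1.35, adjusted p = 0.00548). Pdgfra, the growth factor receptor of mesenchyme, had 128, 119 and 96.1 CPM in mutant E10.5 and 141, 187 and 193 CPM in mutant E9.5 libraries. Its step was -0.60 ± 0.20 in mutants (adjusted p = 0.0524) and 0.98 ± 0.20 in controls (difference -1.58, adjusted p = 0.00805). In mutants it passed under 12 of 25 other settings, DESeq2 and each fit without 1 control E9.5 library among them (adjusted p from 0.00238 to 0.212).

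Of 6 limb mesenchyme markers, 4 fell and none rose in mutants (median -0.77), and 3 rose and 2 fell in controls (median 0.34). In controls 1 fell without any 1 library other than control E9.5 replicate 2 or 3. The difference was called for Tbx5, Prrx1 and Pdgfra under every setting tried. Twist1 and Prrx2 fell in both genotypes, Twist1 by 0.90 in mutants and 0.73 in controls. The call of Prrx2 in mutants (-0.68 ± 0.21) was lost without any 1 mutant library (highest adjusted p 0.122). The summed level of the 6 markers was 531 to 740 CPM in mutant E10.5 and 1020 to 1150 CPM in mutant E9.5 libraries, against 1400 to 1470 CPM in control E10.5 and 1160 to 1290 CPM in control E9.5. None of the 6 was at 0. In these bulk libraries, fewer mesenchymal cells and less RNA per cell cannot be told apart, for this and for every gene of one cell type below.

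The 40 genes with opposite changes also held other transcription factors and metabolic genes. Tbx18, of proximal mesenchyme, changed by -0.66 ± 0.20 in mutants and by 1.85 ± 0.21 in controls. Its call in mutants was lost without mutant E10.5 replicate 2 or 3, any 1 mutant E9.5 library or control E10.5 replicate 3 (highest adjusted p 0.188), while the difference of -2.51 ± 0.29 was called without any 1 library. Nfatc4, a calcium-responsive transcription factor, fell in mutants (-0.63 ± 0.12) and rose in controls (0.67 ± 0.12), as did Stra6, the retinol transporter (-0.74 and 0.59). In the other direction, Atg9b, an autophagy gene, had 13.3, 13.4 and 26.6 CPM in mutant E10.5 and 3.48, 2.54 and 2.80 CPM in mutant E9.5 libraries, against 0.902, 1.26 and 1.59 CPM in control E10.5 and 4.69, 2.44 and 4.49 CPM in control E9.5. The stages did not overlap in either genotype, and the difference was 4.22 ± 0.45 (adjusted p = 0.000303). Pmm1, a phosphomannomutase, rose by 1.12 in mutants and fell by 1.00 in controls, the nuclear receptor gene Esrra by 0.60 and 0.59, and the long non-coding RNA Pvt1 by 0.93 and 0.91.

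Targets of p53 rose in mutants. Of 32 listed genes, 20 rose and none fell in mutants (median 0.605), against 7 that rose and 5 that fell in controls (median -0.06). The difference was called as more positive in mutants for 10, namely Fas, Ptprv, Phlda3, Ccng1, Psrc1, Sesn2, Perp, Zmat3, Mdm2 and Bax, and as more negative for 1, Pmaip1. Without mutant E10.5 replicate 3 the count of risers was 14 and that of differences 3, without control E9.5 replicate 1 they were 24 and 12, and without both 19 and 8.

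Promoters of these genes were searched for the p53 response element, the consensus of 20 bases made of 2 adjacent elements of 10, with at most 1 mismatch and on both strands. It was present in 29 of 32851 RefSeq promoter windows (GRCm38.p6, 0.0883%), each of 300 bases from 250 before a gene start to 50 after it. Of the 32 listed targets, 23 had a window (36 windows in all), and 3 held a match. The matching windows are shown here 5′ to 3′ on the strand of the gene because they place the element beside the values of the gene. The capitals mark the match, at chr11:40755237-40755536 (minus strand) for Ccng1, chr17:29090729-29091028 (plus strand) for Cdkn1a and chr15:85859696-85859995 (plus strand) for Gtse1. Cdkn1a and Gtse1 had 2 windows each, of which 1 matched.
Ccng1: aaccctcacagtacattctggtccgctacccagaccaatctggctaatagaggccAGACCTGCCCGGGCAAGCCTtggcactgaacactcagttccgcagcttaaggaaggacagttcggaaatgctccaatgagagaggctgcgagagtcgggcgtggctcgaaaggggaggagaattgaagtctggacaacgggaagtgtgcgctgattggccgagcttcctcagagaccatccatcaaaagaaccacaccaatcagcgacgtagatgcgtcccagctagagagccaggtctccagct
Cdkn1a: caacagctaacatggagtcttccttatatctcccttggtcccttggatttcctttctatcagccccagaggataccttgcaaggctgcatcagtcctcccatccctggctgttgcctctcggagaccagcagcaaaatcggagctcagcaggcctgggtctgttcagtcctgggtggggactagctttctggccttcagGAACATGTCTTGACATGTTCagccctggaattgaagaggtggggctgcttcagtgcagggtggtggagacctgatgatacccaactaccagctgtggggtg
Gtse1: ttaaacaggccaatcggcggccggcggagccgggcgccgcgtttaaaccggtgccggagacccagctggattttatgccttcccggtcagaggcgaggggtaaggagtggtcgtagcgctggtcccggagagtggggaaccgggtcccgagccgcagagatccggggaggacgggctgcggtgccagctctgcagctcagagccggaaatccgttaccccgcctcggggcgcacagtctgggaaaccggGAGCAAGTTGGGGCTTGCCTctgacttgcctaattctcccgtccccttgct

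Cdkn1a, the cell cycle inhibitor p21, had 171, 186 and 199 CPM in mutant E10.5 libraries and 62.7, 56.5 and 54.5 CPM in mutant E9.5 libraries. Control libraries had 23.5, 24.9 and 20.9 CPM at E10.5 and 10.6, 9.11 and 13.8 CPM at E9.5. The 4 groups did not overlap, and mutants at E9.5 were already above controls at E10.5. The log2 change was 1.68 ± 0.13 in mutants (adjusted p = 3.55e-07) and 1.05 ± 0.13 in controls. The gene thus rose in both genotypes, and its difference of 0.63 ± 0.18 did not pass (adjusted p = 0.0819).

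Ccng1, which encodes cyclin G1, had 135, 114 and 161 CPM in mutant E10.5 and 78.6, 67.9 and 74.4 CPM in mutant E9.5 libraries, against 25.9, 26.5 and 23.8 CPM in control E10.5 and 22, 31.4 and 34.7 CPM in control E9.5. The mutant stages did not overlap while the control stages did, and the difference was 1.11 ± 0.24 (adjusted p = 0.0242). That call was lost without mutant E10.5 replicate 3, mutant E9.5 replicate 2 or 3, or any 1 control E10.5 library (largest adjusted p 0.083). Gtse1, a regulator of p53 in the cell cycle, changed by 0.26 ± 0.09 in mutants (adjusted p = 0.0716) and -0.16 ± 0.09 in controls.

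Fas, a death receptor, had 6.02, 5.08 and 7.42 CPM in mutant E10.5 and 1.43, 2.18 and 1.36 CPM in mutant E9.5 libraries, against 0.164, 0.332 and 0.299 CPM in control E10.5 and 0.274, 0.586 and 0.720 CPM in control E9.5. All mutant libraries stood above all controls, and the step was 1.89 ± 0.33 in mutants and -1 ± 0.38 in controls (difference 2.89, adjusted p = 0.00715), called under every setting tried. Ptprv, a phosphatase gene, rose by 1.45 ± 0.27 in mutants and changed by -0.64 ± 0.30 in controls (difference 2.09, adjusted p = 0.0128). The difference of Ptprv was called without any 1 library and lost only with limma-voom (adjusted p 0.0569). Mdm2, the ubiquitin ligase that degrades p53, rose in mutants (0.63 ± 0.09, adjusted p = 9.45e-05) and changed by 0.15 ± 0.09 in controls. Its difference of 0.49 ± 0.12 (adjusted p = 0.0478) was lost in all fits that left out 1 library except those without control E9.5 replicate 1 or 2 (range 0.00298 to 0.146). The difference of Phlda3, an inhibitor of Akt (1.37 ± 0.27), was called without any 1 library and lost without both control E9.5 replicate 1 and mutant E10.5 replicate 3 (adjusted p 0.0566). Its rise in mutants (0.66 ± 0.19) was lost without mutant E10.5 replicate 2 or 3 or mutant E9.5 replicate 2 (highest adjusted p 0.15).

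The differences of the other 5 p53 targets also rested on single libraries. Without mutant E10.5 replicate 3 all 5 were lost. That of Psrc1 was also lost without mutant E9.5 replicate 2 or 3 or control E10.5 replicate 1 or 2 (highest adjusted p 0.0819), and that of Sesn2 without mutant E9.5 replicate 2 or 3 or control E10.5 replicate 1 or 3 (0.0803). Those of Perp and Bax, a membrane protein and a pore-forming protein of cell death, were lost in 8 of the 12 fits. Perp kept its call without mutant E10.5 replicate 1, mutant E9.5 replicate 1, control E10.5 replicate 2 or control E9.5 replicate 2 (highest 0.117), and Bax without mutant E9.5 replicate 1 or any 1 control E9.5 library (0.126). Zmat3, a zinc finger gene that binds RNA, kept its call without mutant E10.5 replicate 2 or control E9.5 replicate 1 or 2 (0.138).

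Pmaip1, which encodes the killer protein Noxa, ran the other way. It had 35.4, 38.4 and 41.4 CPM in mutant E10.5 and 7.35, 7.54 and 10 CPM in mutant E9.5 libraries, against 42.4, 51.4 and 64.2 CPM in control E10.5 and 1.87, 1.26 and 1.19 CPM in control E9.5. Mutant libraries lay above controls at E9.5 and below them at E10.5, and the step was 2.21 ± 0.23 in mutants and 5.20 ± 0.27 in controls (difference -2.99, adjusted p = 0.000372). Of 20 genes of the apoptosis machinery, 2 rose in mutants (Bid and Bcl2l1), and 7 rose and 2 fell in controls. The count in mutants is close to the share over all tested genes, of which 9.63% rose there, against 15.0% in controls. Without control E9.5 replicate 1, 5 rose in mutants, and without control E10.5 replicate 2, 4 rose in controls. The call of Bid was lost without mutant E10.5 replicate 2 or mutant E9.5 replicate 1 or 3 (highest adjusted p 0.0906). Bmf, a BH3-only gene, rose in controls alone (-0.12 ± 0.18 in mutants and 1.22 ± 0.18 in controls, difference adjusted p = 0.0115).

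Genes of the apical ectodermal ridge formed another group. Of 16 listed genes, 7 rose and 1 fell in mutants (median 0.425), against 2 that rose and 5 that fell in controls (median -0.47), and the difference was called for Fgf8, Dlx1 and Cd44. That number was 1 without mutant E10.5 replicate 3 and 2 without control E9.5 replicate 1. Fgf8 (mm10 chr19:45736798-45742915), the main ridge FGF, had 146, 184 and 152 CPM in mutant E10.5 libraries and 59.6, 31.6 and 58.8 CPM in mutant E9.5 libraries, against 40.0, 54.9 and 43.9 CPM in control E10.5 and 78.1, 43.4 and 49.2 CPM in control E9.5. Mutant E10.5 libraries alone were high, with a log2 change of 1.68 ± 0.34 in mutants (adjusted p = 0.0029) and -0.30 ± 0.33 in controls. The difference of 1.98 ± 0.47 (adjusted p = 0.0393) was lost in all fits that left out 1 library except those without control E9.5 replicate 2 or 3 (range 0.00106 to 0.183). Dlx1, a homeobox gene of ridge and mesenchyme, rose by 1.05 ± 0.18 in mutants and changed by -0.10 ± 0.18 in controls, and its difference was called without mutant E10.5 replicate 1, control E10.5 replicate 2 or any 1 control E9.5 library and lost in the other fits (highest adjusted p 0.0887). Fgf9 rose in both (1.81 in mutants and 1.72 in controls), and Fgf4 had 12, 5.38 and 3.26 CPM in mutant E10.5 libraries and at most 0.0832 CPM in mutant E9.5, with 3.06 to 5.34 CPM in control E10.5.

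Surface ectoderm markers moved with the ridge genes. Of 19 markers, 12 rose and none fell in mutants (median 0.97), and 6 rose and 2 fell in controls (median 0.20). Their summed level was 839 to 1210 CPM in mutant E10.5 and 495 to 591 CPM in mutant E9.5 libraries, against 423 to 605 CPM in control E10.5 and 382 to 466 CPM in control E9.5, and none was at 0. Keratin 5 (Krt5) had 176, 274 and 282 CPM in mutant E10.5 and 52.9, 26.3 and 34.5 CPM in mutant E9.5 libraries, a step of 2.69 ± 0.29 in mutants and 1.8 ± 0.28 in controls. The difference was called for the adhesion gene Epcam (1.27 ± 0.31) and the tight junction gene Cldn7 (1.14 ± 0.28). Epcam kept it without mutant E10.5 replicate 1, control E10.5 replicate 2 or control E9.5 replicate 2, Cldn7 without mutant E10.5 replicate 1 or control E9.5 replicate 2, and both lost it without any other library (highest adjusted p 0.187 and 0.138). St14 and Tgm1, a protease and a transglutaminase of epithelia, were new in mutants (1.99 ± 0.25 and 1.92 ± 0.23), and both differences were lost without mutant E10.5 replicate 3, mutant E9.5 replicate 2 or 3, or control E10.5 replicate 1 or 3 (highest adjusted p 0.0815 and 0.0838). That of Tgm1 was also lost without mutant E10.5 replicate 2 or mutant E9.5 replicate 1. The part of the ectoderm in the rise of ridge genes, and that of the lower mesenchyme sum, was not tested.

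**Figure D4:**
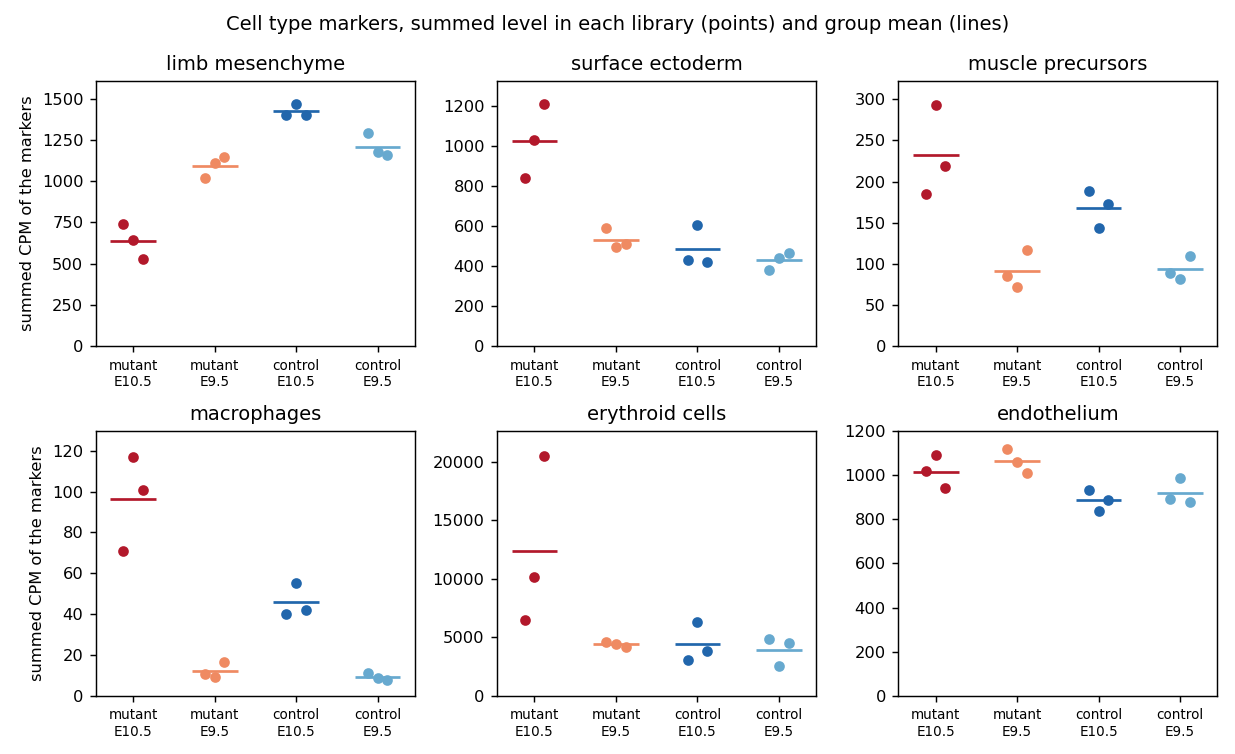
Summed CPM of the markers of 6 cell types in each library (points) with the group mean (lines), mutants left of controls and E10.5 left of E9.5. Mesenchyme is lowest and ectoderm highest in mutant E10.5, macrophage markers are higher at E10.5 in both genotypes, and the erythroid sum of 1 mutant E10.5 library stands far above the rest.

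New rises outside the lists were led by Baiap2, an adaptor of the actin cytoskeleton. It had 50.3, 50.8 and 55.7 CPM in mutant E10.5 and 26.9, 25.6 and 24.8 CPM in mutant E9.5 libraries, against 20.1 to 23.2 CPM over the 6 control libraries (1.02 ± 0.08 in mutants and 0.13 ± 0.08 in controls, difference adjusted p = 0.000858). Ass1, an enzyme of arginine synthesis, rose by 1.63 ± 0.20 in mutants and changed by -0.26 ± 0.20 in controls, and Mapkapk3, a stress kinase, by 1.58 ± 0.16 and 0.39 ± 0.16. Man2b1, a lysosomal mannosidase, rose in both but more in mutants (1.27 ± 0.10) than in controls (0.31 ± 0.10; difference 0.96, adjusted p = 0.00194). These differences were called under every setting tried.

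New falls, at 31, were fewer than the 88 new rises. Wif1, a secreted Wnt inhibitor, had 4.64, 2.86 and 4.02 CPM in mutant E10.5 libraries and 16.8, 14.0 and 14.5 CPM in mutant E9.5 libraries, against 15.3, 26.2 and 21.6 CPM in control E10.5 and 19.2, 15.7 and 13.3 CPM in control E9.5. Mutant E10.5 libraries alone were low (-1.97 ± 0.23 in mutants and 0.39 ± 0.22 in controls, difference adjusted p = 0.00106). The transporter gene Abca8b fell by 2.58 ± 0.23 in mutants and changed by -0.34 ± 0.21 in controls, and Gfpt2, an enzyme of hexosamine synthesis, fell by 1.04 ± 0.14 in mutants and changed by 0.14 ± 0.14 in controls. The differences of Wif1, Abca8b and Gfpt2 held under every setting tried. Alx4, a homeobox gene of anterior limb mesenchyme, had 32.6, 28 and 24.8 CPM in mutant E10.5 and 76.7, 94.7 and 109 CPM in mutant E9.5 libraries, against 100 to 103 CPM in control E10.5 and 68.2 to 108 CPM in control E9.5. Its step was -1.71 ± 0.26 in mutants and 0.15 ± 0.25 in controls, and the difference (adjusted p = 0.0135) was lost without mutant E10.5 replicate 3 (0.108). Of 11 anterior limb genes, 6 fell and 1 rose in mutants (median -0.975), against 2 that fell and 3 that rose in controls (median -0.15). Irx3, Irx5 and Gli3 fell in mutants by 1.78, 1.27 and 0.98, with no difference called, while Alx1 fell in both genotypes. Cd248, a receptor of mesenchyme, fell by 0.90 ± 0.12 in mutants, and its difference was lost without mutant E10.5 replicate 3, mutant E9.5 replicate 2 or control E10.5 replicate 3 (highest adjusted p 0.0543).

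**Figure D5:**
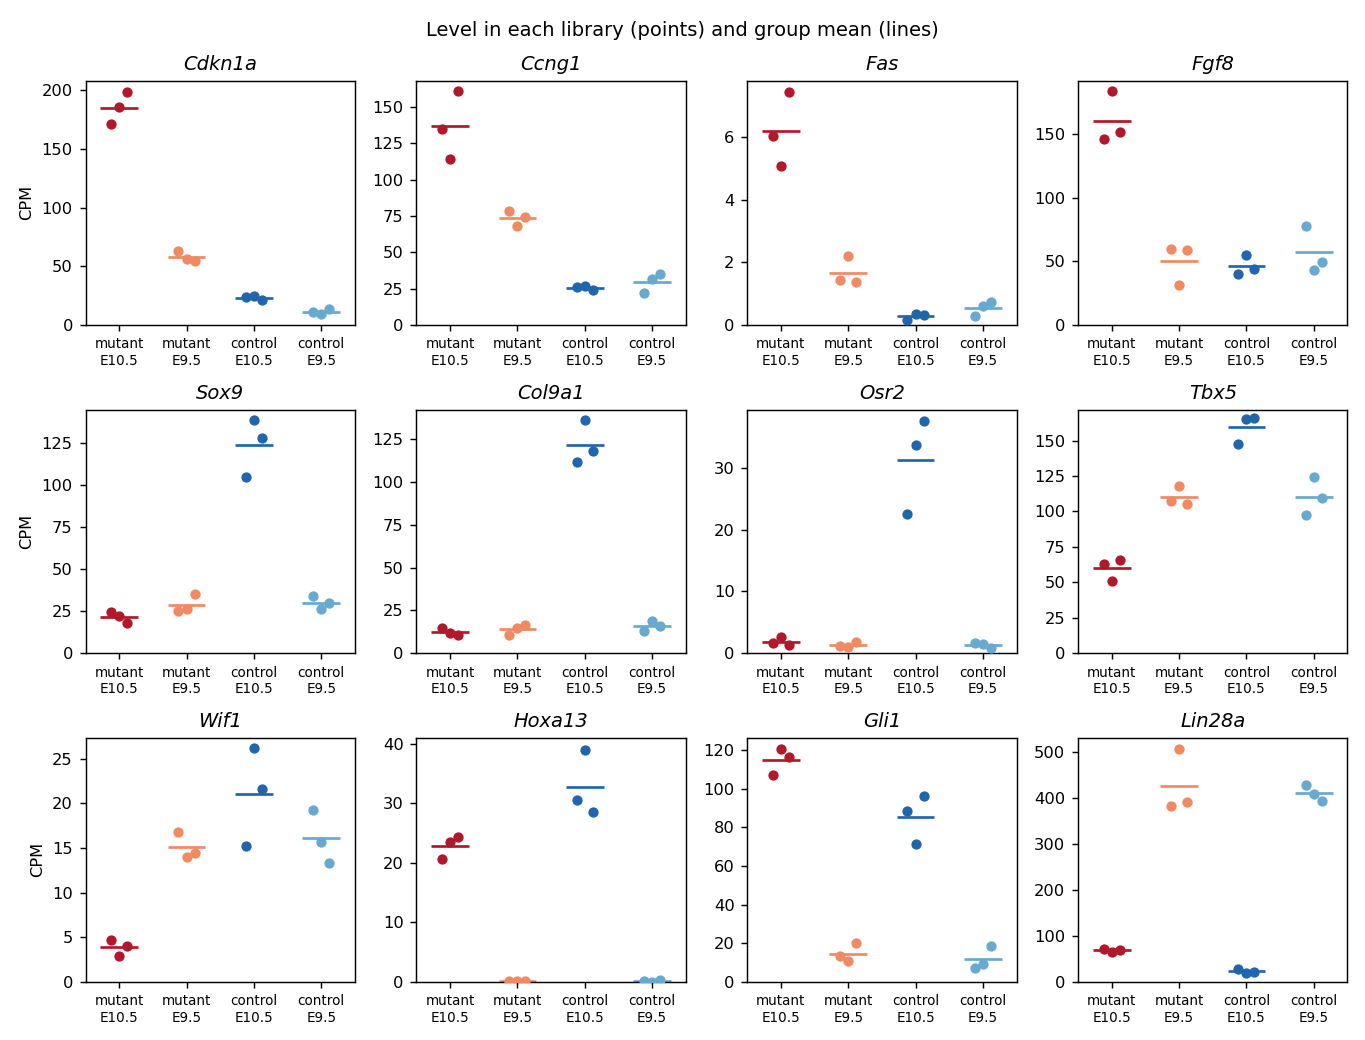
CPM of 12 genes in each library (points) with the group mean (lines), mutants left of controls and E10.5 left of E9.5. Cdkn1a, Ccng1, Fas and Fgf8 are highest in mutant E10.5, Sox9, Col9a1 and Osr2 are high in control E10.5 alone, Tbx5 falls in mutants and rises in controls, Wif1 is low in mutant E10.5 alone, and Hoxa13, Gli1 and Lin28a change the same way in both genotypes.

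Many markers of macrophages and muscle precursors, cells that enter the limb from outside and where Prrx1-Cre is not active, rose in both genotypes. Markers of other such cells did not follow this pattern, as given below. Of 19 macrophage markers, 18 rose in mutants (median 3.69) and 15 in controls (median 3.57), with no difference called. The macrophage receptor gene Csf1r had 8.07, 13.7 and 10.8 CPM in mutant E10.5 and 0.717, 0.516 and 1.33 CPM in mutant E9.5 libraries, against 5 to 7.2 CPM in control E10.5 and 0.249 to 0.988 CPM in control E9.5. The summed marker level was 71.1 to 117 CPM in mutant E10.5, 9.15 to 16.3 CPM in mutant E9.5, 40.2 to 55.1 CPM in control E10.5 and 7.84 to 10.9 CPM in control E9.5. In each of the mutant E9.5, control E10.5 and control E9.5 groups, 1 marker was at 0.

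Of 18 markers of muscle precursors, 10 rose in mutants (median 1.89) and 13 in controls (median 2.33), with a difference called for Lbx1, a homeobox gene of migrating precursors, alone (1.22 ± 0.26 in mutants and -0.36 ± 0.26 in controls). That difference was lost without mutant E10.5 replicate 2 or 3, mutant E9.5 replicate 1 or 2, any 1 control E10.5 library or control E9.5 replicate 1 (highest adjusted p 0.143). The muscle regulator Myod1 had 3.80, 9.05 and 2.87 CPM in mutant E10.5 libraries and at most 0.0198 CPM in mutant E9.5, against 4.39 to 8.07 CPM in control E10.5 and at most 0.206 CPM in control E9.5. Msc, a repressor in muscle precursors, rose by 6.16 ± 0.45 in mutants and 4.62 ± 0.42 in controls. The contractile genes Myh3, Myl1, Ttn and Actc1 were called in controls and not in mutants, with no difference called. Myh3 stood at 0.492 to 1.22 CPM in mutant E10.5 libraries and at 13.4, 0.687 and 13.9 CPM in control E10.5 libraries, so that control E10.5 replicate 2 was as low as the mutants.

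Of 17 erythroid markers, 11 rose in mutants (median 1.31) and none in controls, and none of the 11 calls remained without mutant E10.5 replicate 3. Of 10 platelet and megakaryocyte markers, none was called in mutants and 1 rose in controls (0 to 5 over the settings). Of 14 markers of Schwann cells and neurons, 5 rose and 1 fell in mutants, and 2 rose and 3 fell in controls. Over the settings, those rises numbered 2 to 5 in mutants and 1 to 5 in controls. Of 25 endothelial markers, 2 rose and 5 fell in mutants, and 3 rose and 5 fell in controls (medians -0.05 and -0.16). The falls in controls numbered 3 without control E10.5 replicate 1 or control E9.5 replicate 1, 1 without control E10.5 replicate 2 and 2 without control E10.5 replicate 3. The rises in mutants numbered 1 without replicate 2 or 3 of mutant E10.5 or mutant E9.5. A difference was called for 3 markers. Fli1, an ETS factor of endothelium and blood, had 33.4, 28.4 and 19.7 CPM in mutant E10.5 and 30.1, 28.4 and 32.9 CPM in mutant E9.5 libraries, against 63.6, 70.3 and 60.2 CPM in control E10.5 and 23.2, 31.1 and 29.5 CPM in control E9.5. Control E10.5 libraries alone were high, with a step of -0.17 ± 0.17 in mutants and 1.21 ± 0.17 in controls and a difference of -1.38 ± 0.24 (adjusted p = 0.00757) that was called under every setting tried. Esm1, a secreted product of endothelial tip cells, fell by 3.09 ± 0.47 in mutants and changed by -0.59 ± 0.42 in controls, and its difference of -2.51 (adjusted p = 0.0444) was lost in all fits that left out 1 library except those without control E9.5 replicate 1 or 2 (highest 0.117). Eng, a TGF-beta co-receptor, rose by 0.46 ± 0.12 in mutants and changed by -0.33 ± 0.12 in controls. Its difference of 0.78 (adjusted p = 0.0269) was lost without replicate 2 or 3 of mutant E10.5 or mutant E9.5 or control E10.5 replicate 1 or 2 (highest 0.0839), and its rise without the same 4 mutant libraries. The endothelial receptor gene Kdr fell by 0.80 in mutants and 0.46 in controls. Of 25 mitosis genes, 6 fell and 1 rose in mutants, and 6 fell and 1 rose in controls, with no difference called. The count of falls in mutants was 16 without control E9.5 replicate 1 and 2 without mutant E10.5 replicate 3. In controls it was 1 to 8 over the settings. Of 18 cohesin genes, 1 fell in mutants (Smc3, by 0.39 ± 0.11), a count close to the share over all tested genes, of which 4.40% fell. In controls 2 rose and 1 fell, with no difference called. Without control E9.5 replicate 1, 9 fell in mutants. The call of Smc3 was lost without any 1 mutant E10.5 library or mutant E9.5 replicate 2 (highest adjusted p 0.12).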

How the data were processed

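RNA was sequenced in 18 libraries of mouse forelimb buds, in 6 groups of 3 by genotype and stage, grouped by their labels. The authors deposited raw counts of read pairs per gene for each library, made with featureCounts 1.6.4 on GENCODE M22 (mm10), paired and reverse stranded, per the file headers. They also deposited a table of log2 FPKM values for 14692 genes, used here as an alternative alone. Its log base is not given and was taken as 2 from its match to the counts. The submitters' processing notes name cutadapt, STAR, featureCounts and limma, with no settings. Totals ran from 35034237 to 56230058 counts per library, and read pairs without molecular identifiers are not independent molecules.

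Counts of 55487 identifiers (99.8% matched to symbols) were filtered with filterByExpr, which left 20118 genes, scaled by TMM, and fitted in edgeR 4.0.16 (R 4.3.3) over all 18 libraries with robust quasi-likelihood dispersions (biological coefficient of variation 0.231). Steps in mutants, in controls and their difference were tested with glmQLFTest and adjusted over all genes by Benjamini and Hochberg at 0.05. The SE is the log2 change divided by the square root of F. Coordinates are those of the count files. Alternatives, 27 in all, included DESeq2 1.42.0, limma 3.58.1, other scalings and filters, removal of a length trend and a replicate block. They also left out, in turn, each of the 12 libraries of E9.5 and E10.5, but no single library of E11.5. The fit was tested on simulated data.

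The members and the 37 lists (634 genes) were chosen with earlier results of these data known. The rule for named genes took fixed genes of limb patterning, from every list the genes lowest in adjusted p for mutants and for the difference, the largest changes in mutants, and the smallest p of the difference and of the kept and new classes, without predicted genes and, in these last groups, with a mean log2 CPM of at least 1. Outside it, and chosen after their values were seen, were Hoxa10, Hoxd9, Hhip, Col2a1, Col11a1, Col9a2, Col9a3, Trps1, Foxc1, Col1a2, Col3a1, Col5a2, Fbln2, Ccng1, Zmat3, Perp, Psrc1, Bax, Sesn2, Phlda3, Gtse1, Cd44, Rspo3, Bid, Bcl2l1, Pgk1, Myh3, Myl1, Ttn, Actc1, Alx1, Irx5 and Gli3. Some of these also met the rule through their list. Some genes are not reported here.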

Additional observations from a re-analysis of the deposited data

Results flagged for a closer look

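The step from E9.5 to E10.5 differed between mutants and controls, by the test of the difference itself (edgeR quasi-likelihood test, adjusted p below 0.05), for 66 genes named above. Values are the log2 change in mutants minus the log2 change in controls.

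The step was more negative in mutants by the widest margins for Osr2 (-3.94), Col9a1 (-3.10), Pmaip1 (-2.99), Col9a2 (-2.54), Tbx18 (-2.51), Esm1 (-2.51), Sox9 (-2.46), Wif1 (-2.36), Abca8b (-2.23), Runx1t1 (-2.09), Rspo3 (-1.88), Cacna1g (-1.87), Alx4 (-1.86), Osr1 (-1.79) and Foxc1 (-1.75). It was more negative by less for Sox5 (-1.68), Col9a3 (-1.66), Shox2 (-1.61), Col1a2 (-1.58), Pdgfra (-1.58), Eln (-1.53), Mfap4 (-1.44), Tbx5 (-1.41), Fli1 (-1.38), Prrx1 (-1.35), Col11a1 (-1.34), Bmf (-1.34), Stra6 (-1.33), Dnm1 (-1.30), Nfatc4 (-1.30), Trps1 (-1.22), Gfpt2 (-1.18), Col3a1 (-1.11), Col5a2 (-0.96), Fbln2 (-0.95), Cd248 (-0.86) and Rarg (-0.71).

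It was more positive in mutants by the widest margins for Atg9b (4.22), Fas (2.89), Pmm1 (2.12), Ptprv (2.09), Fgf8 (1.98), Ass1 (1.89), Pvt1 (1.84), Lbx1 (1.58), St14 (1.58), Tubb6 (1.53), Tgm1 (1.48), Wfikkn1 (1.45), Phlda3 (1.37) and Cd44 (1.35). It was more positive by less for Epcam (1.27), Esrra (1.19), Mapkapk3 (1.19), Perp (1.16), Dlx1 (1.16), Cldn7 (1.14), Ccng1 (1.11), Bax (1.08), Man2b1 (0.96), Sesn2 (0.91), Baiap2 (0.89), Eng (0.78), Psrc1 (0.71), Zmat3 (0.63) and Mdm2 (0.49). Groups of 3 libraries are too small for a test of single outlying libraries.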

How the results depend on the processing

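All 12 fits that each left out 1 library changed the counts. Mutants had 1170 to 2617 higher and 461 to 2238 lower genes, controls 2131 to 3589 higher and 1513 to 3350 lower, and the difference 38 to 1362 more positive and 86 to 1148 more negative. Kept genes were 1066 to 2168, missed 87 to 1927, new 19 to 315 and opposite 20 to 67, and the adjusted p of Esco2 in mutants was 0.206 to 0.591. The 1362, 1148 and 1927 came without control E9.5 replicate 2. DESeq2 called 1348 genes lower in mutants, 676 and 741 for the difference, and 916 missed, 292 new and 71 opposite. A fit of only the 12 libraries of both stages called 89 and 129 for the difference, 135 missed and 56 new. Genes lower in mutants were 2033 in a fit of only the 6 mutant libraries, 1414 with the length trend removed, 1433 without both control E9.5 replicate 1 and mutant E10.5 replicate 3, and 297 at 2-fold or more. At an adjusted p of 0.01, mutants had 1083 higher and 362 lower genes. The cause of these shifts was not tested. The share of calls that were higher was 68.6% in mutants, 54.4% with the 6 mutant libraries alone and 59.7% with the length trend removed. In controls it was 54.5%, and 44.1% with the length trend removed.

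Same-numbered libraries of the mutant stages did not deviate together (correlations -0.0355, -0.00749 and 0.00887). No pairing of the mutant stages by replicate number was thus seen, but with 3 libraries a group these values cannot exclude one. Across genotypes, same-numbered libraries had correlations of 0.184, 0.119 and 0.0693 at E9.5 and of 0.0865, 0.0596 and -0.00328 at E10.5. Each mutant E9.5 library correlated best with the control E9.5 library of its number. So did mutant E10.5 replicates 1 and 2 with controls of their stage, but not replicate 3. Whether this reflects a shared source was not tested. With a replicate block, mutants had 1789 higher and 793 lower genes, the difference 118 and 213, and 1491 were kept, 220 missed, 81 new and 38 opposite. Of 219 named genes called in mutants, 144 kept the call under all settings, and of 91 named differences 42 did. None reversed. Median SEs of the log2 change were 0.236 in mutants and 0.332 for the difference. A call needs a change of several SEs, so effects well above these values can also go undetected with 3 libraries a group.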

Other observations

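In the other pathway lists of this paragraph, calls in mutants went in both directions. Over all tested genes, 9.63% rose and 4.40% fell in mutants, and 15.0% rose and 12.5% fell in controls. Of 21 Wnt pathway genes, 6 rose and 7 fell in mutants, and 7 rose and 4 fell in controls. Of 14 genes of the retinoic acid pathway, 4 rose and 5 fell in mutants, and 2 rose and 3 fell in controls. None of the retinoic acid genes rose in mutants without mutant E9.5 replicate 2, and 2 rose without mutant E10.5 replicate 2 or mutant E9.5 replicate 3. Of 20 genes of distal limb and FGF response, 5 rose and 2 fell in mutants, and 6 rose and 5 fell in controls. In mutants 7 fell without control E9.5 replicate 1, and 3 rose without mutant E10.5 replicate 1 or mutant E9.5 replicate 2 or 3. Of 16 BMP pathway genes, 1 rose and 1 fell in mutants, close to the shares over all genes, and 4 rose and 4 fell in controls. The BMP pathway call that rose was lost without any 1 mutant library or control E10.5 replicate 1 or 3, and 2 rose in controls without either of these 2. Falls numbered 3 in mutants without control E9.5 replicate 1 and none without mutant E10.5 replicate 1 or 3 or mutant E9.5 replicate 2.

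Of 19 genes of the integrated stress response, 3 fell and none rose in mutants (median -0.11), and 12 fell and none rose in controls (median -0.61). The difference was called as more positive in mutants for 3, and for 0 to 8 over the settings (0 without mutant E10.5 replicate 3). Of 18 imprinted growth genes, 6 fell and 1 rose in mutants, and 7 fell and 2 rose in controls. The falls in mutants numbered 11 without control E9.5 replicate 1 and 2 without mutant E10.5 replicate 3. Of 28 DNA replication genes, 2 fell in mutants and 8 in controls, and 8 fell in mutants without control E9.5 replicate 1. The falls in controls ran from 4 to 14. Of 12 mitochondrially encoded genes, 3 rose in mutants and none changed in controls, with no difference called. None rose in mutants without mutant E10.5 replicate 1 or 2 or mutant E9.5 replicate 2 or 3.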
